A study of Mus musculus with 12 samples.

Results

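Trim58, Trim10, Ube2o, Ube2h, Ube2l6, Fbxo7, Xpo7 and Foxo3 are 8 genes of the late remodelling of red cell precursors. They were taken by gene symbol from 55487 genes listed per library, and all 8 symbols were found. No value entered that rule, but the genes were chosen with earlier results of these data known. The cells were G1E-ER4, an erythroid progenitor line of mouse origin without its own GATA1, a transcription factor of red cell genes, and with a GATA1 fusion switched on by estradiol. Cells of each group were transfected on 2 occasions 24 h apart with siRNA, were induced to differentiate at the second of these (100 nM β-estradiol) and were harvested 24 h later. The siZIP10 plus DTPA group received siRNA against ZIP10 (gene Slc39a10), which brings zinc into the cell, together with 25 µM DTPA, a metal chelator used to lower zinc, given from the start of differentiation (n = 3). The siZIP10 group received the ZIP10 siRNA without DTPA (n = 3), the siControl plus DTPA group the control siRNA with 25 µM DTPA (n = 2 here), and the siControl group the control siRNA without DTPA (n = 3). The groups share 1 cell line, the estradiol and the transfections. The ZIP10 siRNA was the only treatment aimed at ZIP10, and DTPA was the only chelator. Side effects of the siRNA therefore cannot be told apart from loss of ZIP10, nor binding of metals other than zinc from loss of zinc. The third siControl plus DTPA library repeated siZIP10 replicate 1 in all 55487 values and was left out, leaving 11 libraries.

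Maturing erythroblasts condense and expel their nucleus and break down much of the proteome that red cells do not keep. Ubiquitin, a small protein, is attached to proteins by a chain of activating (E1), conjugating (E2) and ligating (E3) enzymes and marks many of them for the proteasome. TRIM58 and TRIM10 are tripartite-motif proteins of erythroid cells, UBE2O, UBE2H and UBE2L6 are conjugating enzymes, FBXO7 is the substrate-binding subunit of a ligase, XPO7 is a nuclear exporter, and FOXO3 is a transcription factor of late erythroid genes.

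Levels are in TPM, transcripts of a gene among 1000000, which are corrected for transcript length and give each gene as a share of the library's RNA. Reads recovered from the deposited values numbered 19.63 to 24.69 M per library (M, 1000000). In bulk RNA, fewer cells of a type and less RNA per cell cannot be told apart. The targeted gene, Slc39a10, averaged 5.10 ± 0.23 TPM in siZIP10 plus DTPA, 0.63 ± 0.18 TPM in siZIP10, 21.1 ± 1.19 TPM in siControl plus DTPA and 2.62 ± 0.27 TPM in siControl (SD, n = 3, 3, 2 and 3), and was thus lower with the knockdown at either zinc level. None of 8 erythroid markers was at 0, and their summed level was 33831 to 36240 TPM in siZIP10 plus DTPA, 40982 to 42970 TPM in siZIP10, 44502 to 47586 TPM in siControl plus DTPA and 35327 to 40125 TPM in siControl. The 5 mast cell and basophil markers summed to 20.7 to 22.6 TPM in siZIP10 plus DTPA, against at most 2.49 TPM in any other library. That sum was mostly Hdc, the histamine-forming enzyme, at 21.6 TPM on average with both treatments, while Mcpt8 and Ms4a2 were at 0 in every library. Summed megakaryocyte markers were 7.93 to 8.66 TPM in siZIP10 plus DTPA, against 2.02 to 6.30 TPM over the other libraries, with Gp1bb at 0 throughout. The 6 myeloid markers summed to 5.86 to 6.80 TPM with both treatments, against 2.33 to 5.16 TPM elsewhere (Mpo, Elane and Itgam at 0), and the 5 lymphoid markers to 2.38 to 3.25 TPM, against 0.30 to 1.61 TPM (Il7r at 0). Mitochondrial ribosomal RNA took 1.43% to 1.45% of all TPM in siZIP10 plus DTPA, against 0.26% to 0.42% elsewhere, and the part of these shifts in the members' values with both treatments was not tested.

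Changes are given as differences of mean log2(TPM + 1) with their standard errors, tested with limma over 11379 genes of at least 1 TPM on average, and a gene is called at a two-sided Benjamini-Hochberg adjusted p below 0.05. Of the 8 members 7 were tested, Trim58 being at 0. Low zinc alone (siControl plus DTPA against siControl) called 4 members higher and 1 lower, where 28.8% of all tested genes were called. Low ZIP10 alone (siZIP10 against siControl) likewise called 4 higher and 1 lower, with 30.6% of all genes called. With both treatments (siZIP10 plus DTPA against siControl) 3 members were higher and 2 lower, with 66.6% of all genes called, so that a count of 5 of 7 is near the background there. DTPA within the knockdown (siZIP10 plus DTPA against siZIP10) called 2 members higher and 4 lower, against 60.4% of genes. The knockdown within DTPA (siZIP10 plus DTPA against siControl plus DTPA) called 1 higher and 3 lower, against 53.1% of genes. The interaction, the DTPA change with the knockdown minus that without it, called 0 members higher and 5 lower, against 32.4% of genes. Between the single treatments (siZIP10 against siControl plus DTPA) 1 member was lower, against 20.8% of genes. Those 2371 genes numbered 1369 without siControl plus DTPA replicate 1 and 1260 without replicate 2 of that group. The comparisons share libraries and are not independent of each other.

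The median change of the 7 tested members was 0.18 with low zinc, 0.20 with low ZIP10 and 0.01 with both treatments, on the log2 scale, beside −0.04, −0.01 and −0.08 over all tested genes. The split of all called genes depended on the scaling. With low zinc 1136 genes were higher and 2136 lower, but 1625 and 1780 with median-of-ratios scaling and 1727 and 1653 with quantile normalization. With both treatments 3041 were higher and 4542 lower, but 3841 and 3809 with quantile normalization. Small changes of single members are therefore given below with the scalings under which they were lost.

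**Figure D1:**
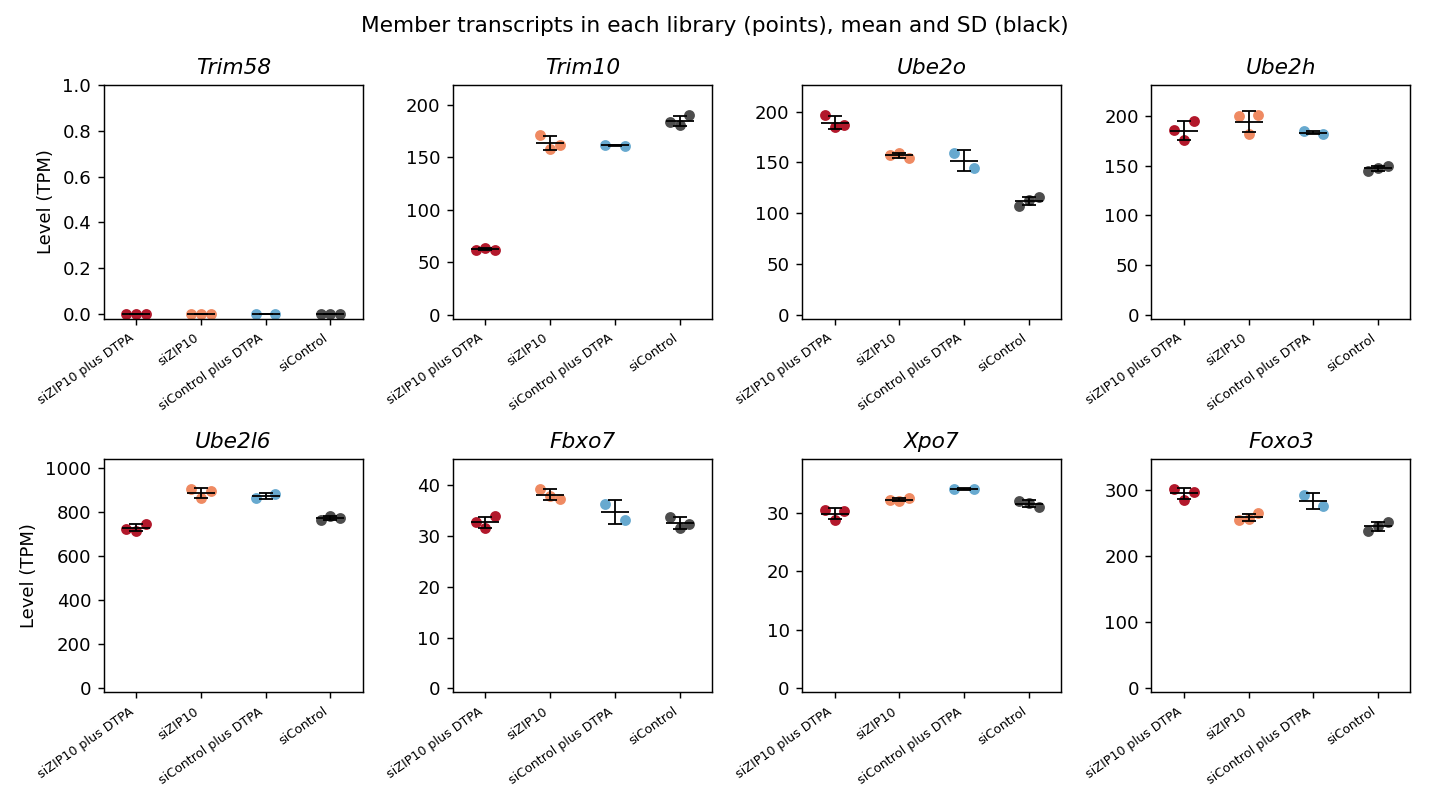
Level of each of the 8 genes in TPM on the vertical axis of its panel, with 1 point per library, for siZIP10 plus DTPA, siZIP10, siControl plus DTPA and siControl from left to right; black marks are mean and SD. Trim58 is at 0 throughout, Trim10 is at 61.8 to 63.9 TPM in siZIP10 plus DTPA and at 158.0 TPM or more elsewhere, and Ube2o is lowest in siControl.

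Trim58 (ENSMUSG00000037124.6, chr11:58640465-58652404, plus strand, 2192 exon bases, GRCm38) encodes an E3 ligase that in mouse erythroblasts directs the motor protein dynein to degradation and favours expulsion of the nucleus. It was listed at 0 TPM, with 0 recovered reads, in each of the 11 libraries. A level of 3 reads, the limit that a count of 0 allows, would be 0.165 to 0.221 TPM depending on the library, and this limit covers counting error only. Each of 12 housekeeping genes was above 0 in every library, the lowest being Tbp at 7.08 TPM. Of 55487 listed genes, 15225 to 16147 were above 0 per library, so a 0 was common. Housekeeping genes do not show whether the reads of Trim58 were counted. The annotation behind the authors' counting is not given in the sources used here, so a 0 that comes from the counting and one that comes from too few transcripts cannot be told apart, and the limit holds only if the gene's reads were counted. No fold change or test was made. Its promoter is printed below because it alone of the 8 was at 0, beside the 2 promoters that hold a match to a searched motif.

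Promoter windows of 250 bases before to 50 bases after an annotated start (GRCm38.p6) were found for 6 of the 8 members, in 8 windows. For Trim10 this start lies downstream of RefSeq's own gene start. They were searched on both strands for AGATAA and TGATAA, 2 forms of the GATA factor motif, for CCACACCC, the erythroid KLF1 motif, and for TGTTTAC, the forkhead (FOXO) motif. Other GATA forms were not searched, such as AGATAG, which is in the Trim58 stretch printed below. A window without a match may therefore hold another form. Of 32851 windows of this length in the same set, 11.2% held AGATAA, 9.05% TGATAA, 18.6% either of them, 3.56% CCACACCC and 3.65% TGTTTAC. Trim10 held 1 match, the AGATAA motif read on the opposite strand as TTATCT, at positions −163 to −158 with the start as 0. The window of a second Ube2h start, inside the gene, held AGATAA at −204 to −199 and, on the opposite strand, the forkhead motif as GTAAACA at −194 to −188, and these matches did not overlap. None of the 4 motifs was in the windows of Trim58, Ube2l6, Fbxo7, Foxo3 or the first Ube2h start. A match in letters describes the sequence and is no measure of binding, and the gene-level TPM does not separate the Ube2h starts. The stretches before the starts of Trim58 (chr11:58640215-58640464, plus strand), Trim10 (chr17:36869324-36869495, plus strand, up to the base before RefSeq's own gene start, which lies upstream of the start the window is counted from) and the second Ube2h start (chr6:30243804-30244053, minus strand) read 5′ to 3′ as follows, with motif matches in capitals.
Trim58: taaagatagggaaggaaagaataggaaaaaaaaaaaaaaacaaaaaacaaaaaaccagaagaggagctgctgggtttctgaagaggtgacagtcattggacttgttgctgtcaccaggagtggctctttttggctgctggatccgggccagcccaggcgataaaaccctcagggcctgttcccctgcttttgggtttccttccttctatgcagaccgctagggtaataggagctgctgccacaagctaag
Trim10: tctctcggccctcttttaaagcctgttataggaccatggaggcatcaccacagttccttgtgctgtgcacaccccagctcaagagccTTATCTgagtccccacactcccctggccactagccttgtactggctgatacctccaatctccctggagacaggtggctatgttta
Ube2h: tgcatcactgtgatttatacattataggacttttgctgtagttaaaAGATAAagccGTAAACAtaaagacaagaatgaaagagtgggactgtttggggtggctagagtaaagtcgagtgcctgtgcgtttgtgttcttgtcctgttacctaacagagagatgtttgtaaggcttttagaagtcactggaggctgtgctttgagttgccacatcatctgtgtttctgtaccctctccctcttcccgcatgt

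Trim10 (ENSMUSG00000073400.6, chr17:36869574-36877833, plus strand) encodes a tripartite-motif protein needed for terminal differentiation of a mouse erythroleukaemia line. It had 61.9, 63.9 and 61.8 TPM in siZIP10 plus DTPA, 171.7, 158.0 and 161.9 TPM in siZIP10, 162.1 and 160.9 TPM in siControl plus DTPA, and 183.6, 181.4 and 190.6 TPM in siControl. The 3 double-treated libraries stood far below the other 8, the single-treatment groups overlapped each other, and both of these lay below siControl. Trim10 fell by 0.20 ± 0.04 on the log2 scale with low zinc (adjusted p = 0.00282) and by 0.18 ± 0.03 with low ZIP10 (adjusted p = 0.00285), to 87.2% and 88.5% of the siControl mean. With both treatments it fell by 1.55 ± 0.03 (adjusted p = 4.61e-11), to 33.8% of siControl. DTPA within the knockdown left 38.2% of the siZIP10 mean (adjusted p = 1.92e-10), and the knockdown within DTPA left 38.7% of the siControl plus DTPA mean (adjusted p = 9.18e-10). The interaction was −1.18 ± 0.05 (adjusted p = 8.41e-08), as the single changes sum to −0.37 where the double change was −1.55. The single treatments differed by 0.02 (95% interval −0.06 to 0.10, adjusted p = 0.769). Each of the 6 calls was kept in every alternative that was run.

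The 4 group means of Trim10 spanned 1.55 on the log2 scale, more than those of 95.2% of all tested genes, and those of Ube2o spanned 0.75, more than 78.9%. The other tested members spanned 0.40 (Ube2h), 0.29 (Ube2l6), 0.27 (Foxo3), 0.22 (Fbxo7) and 0.19 (Xpo7), at or below the median of 0.40 over all genes. By mean level over the libraries Ube2l6 was the most abundant at 809.7 TPM, above 98.7% of tested genes. Foxo3 followed at 269.6 TPM, Ube2h at 177.2 TPM, Ube2o at 152.5 TPM, Trim10 at 141.6 TPM, Fbxo7 at 34.6 TPM and Xpo7 at 31.7 TPM. The level of Xpo7 is divided by an exon length of 19005 bases summed over its annotated transcripts, which lowers it if shorter transcripts are made.

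Ube2o (ENSMUSG00000020802.8, chr11:116537740-116581447, minus strand) encodes a large conjugating enzyme that also selects its substrates and removes ribosomal proteins in reticulocytes. It had 196.7, 184.4 and 186.5 TPM in siZIP10 plus DTPA, 157.5, 158.9 and 154.1 TPM in siZIP10, 159.0 and 144.7 TPM in siControl plus DTPA, and 107.1, 113.2 and 115.4 TPM in siControl. The double-treated libraries were highest and the siControl libraries lowest, without overlap, and the single-treatment groups overlapped between them. Ube2o rose by 0.44 ± 0.05 with low zinc (adjusted p = 7.57e-05), to 136% of siControl, and by 0.48 ± 0.04 with low ZIP10 (adjusted p = 1.71e-05), to 140%. With both it rose by 0.75 ± 0.04 (adjusted p = 4.59e-08), to 169% of siControl. It rose by 0.27 with DTPA within the knockdown (adjusted p = 0.000218) and by 0.32 with the knockdown within DTPA (adjusted p = 0.000199). The single changes sum to 0.92, and the interaction of −0.17 ± 0.06 was not called (adjusted p = 0.0662). It became a call in 4 alternatives, with voom (−0.13, adjusted p = 0.0453), with the 12 libraries as labelled (−0.18, adjusted p = 0.0385), on leaving out siControl plus DTPA replicate 2 (−0.23, adjusted p = 0.0203) and on leaving out siZIP10 plus DTPA replicate 1 (−0.19, adjusted p = 0.0432). Ube2o was the single tested member called higher in each of the 5 comparisons of a treatment with its control, and these calls were kept in every alternative.

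Ube2h (ENSMUSG00000039159.16, chr6:30211289-30304539, minus strand) encodes the conjugating enzyme that serves the CTLH ligase complex. It had 186.1, 175.7 and 194.7 TPM in siZIP10 plus DTPA, 200.4, 182.2 and 201.3 TPM in siZIP10, 184.6 and 182.4 TPM in siControl plus DTPA, and 144.4, 148.2 and 149.4 TPM in siControl. Each treated library lay above the siControl libraries, and the 3 treated groups overlapped one another. Ube2h rose by 0.31 ± 0.05 with low zinc (adjusted p = 0.000913), by 0.40 ± 0.04 with low ZIP10 (adjusted p = 9.39e-05) and by 0.33 ± 0.04 with both (adjusted p = 6.51e-05). The second treatment added no called change: DTPA within the knockdown gave −0.07 (95% interval −0.17 to 0.03, adjusted p = 0.212) and the knockdown within DTPA 0.01 (−0.10 to 0.13, adjusted p = 0.827). The first of these was called without siZIP10 replicate 2 (−0.12, adjusted p = 0.0322), and the second with quantile normalization (0.13, adjusted p = 0.0325). The interaction was −0.38 ± 0.07 (adjusted p = 0.0014), the single changes summing to 0.71.

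Ube2l6 (ENSMUSG00000027078.14, chr2:84798828-84810335, plus strand) encodes a conjugating enzyme used for ubiquitin and for ISG15, a ubiquitin-like protein of the interferon response. It had 721.3, 715.7 and 746.2 TPM in siZIP10 plus DTPA, 905.6, 861.4 and 893.9 TPM in siZIP10, 863.9 and 882.3 TPM in siControl plus DTPA, and 764.2, 780.2 and 772.5 TPM in siControl. Each single treatment lay above siControl and the double treatment below it, without overlap. It rose by 0.18 ± 0.03 with low zinc (adjusted p = 0.000952) and by 0.20 ± 0.03 with low ZIP10 (adjusted p = 0.000224), to 113% and 115% of siControl. With both it fell by 0.09 ± 0.03 (adjusted p = 0.0115), to 94.2% of siControl. This fall was lost with 4 other scalings or models, at 0.0065 with median-of-ratios scaling, 0.0040 with scaling to nuclear protein-coding genes, −0.04 with quantile normalization and −0.02 with voom on recovered reads. It fell by 0.29 with DTPA within the knockdown (adjusted p = 2.96e-06) and by 0.26 with the knockdown within DTPA (adjusted p = 1.96e-05), and the interaction was −0.46 ± 0.04 (adjusted p = 8.21e-06).

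**Figure D2:**
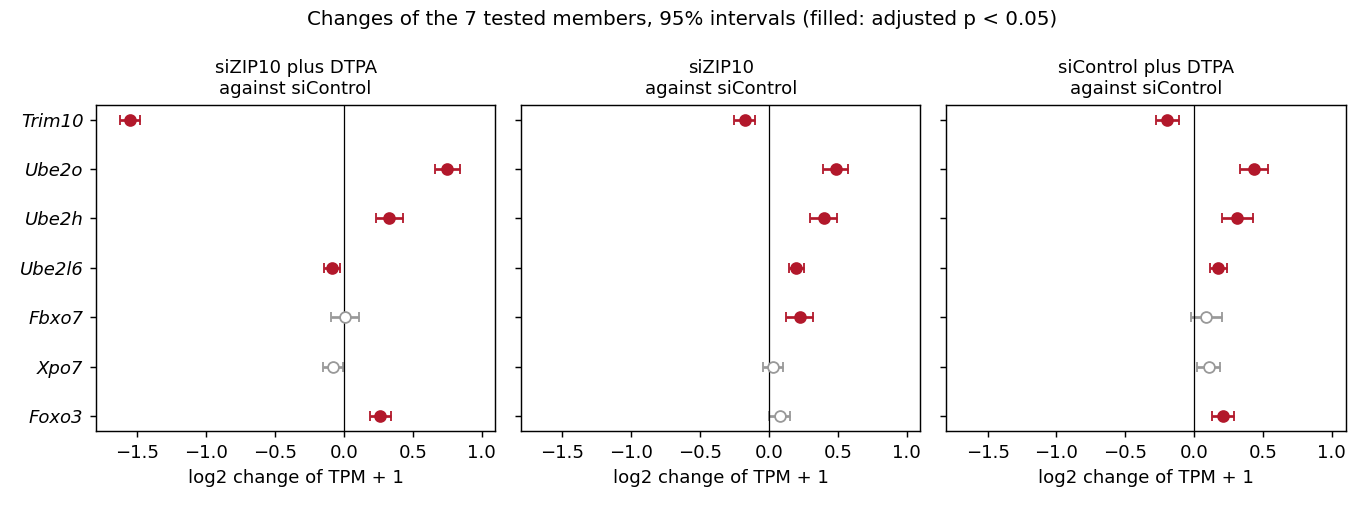
Change of each of the 7 tested genes on the log2(TPM + 1) scale (horizontal axis) in siZIP10 plus DTPA, siZIP10 and siControl plus DTPA, each against siControl; bars are 95% intervals and filled points are called. Trim10 lies at −1.55 with both treatments and near −0.20 and −0.18 with either, and Ube2o lies to the right of 0 in each panel.

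Fbxo7 (ENSMUSG00000001786.14, chr10:86021972-86051873, plus strand) encodes an F-box protein of a cullin ligase that also binds the proteasome regulator PI31, and its loss in mice impairs red cell production. It had 32.7, 31.7 and 33.9 TPM in siZIP10 plus DTPA, 39.4, 37.9 and 37.3 TPM in siZIP10, 36.4 and 33.1 TPM in siControl plus DTPA, and 33.8, 31.6 and 32.3 TPM in siControl. The siZIP10 libraries stood above all others, which overlapped. Fbxo7 rose by 0.22 ± 0.05 with low ZIP10 (adjusted p = 0.00403), to 117% of siControl. The change was 0.09 with low zinc (95% interval −0.02 to 0.20, adjusted p = 0.23) and 0.01 with both (−0.09 to 0.11, adjusted p = 0.891). It fell by 0.22 with DTPA within the knockdown (adjusted p = 0.00181), to 85.8% of siZIP10, and the interaction was −0.30 ± 0.07 (adjusted p = 0.00596). Quantile normalization called it with low zinc (0.14, adjusted p = 0.0419) and with both treatments (0.12, adjusted p = 0.0229). Of its exon bases 5.08% overlap the antisense gene A230060F14Rik, and the strand setting of the counting is not given in the sources used here.

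Xpo7 (ENSMUSG00000022100.14, chr14:70654246-70766628, minus strand) encodes the nuclear exporter exportin 7, needed for nuclear condensation in cultured mouse erythroblasts. It had 30.4, 28.7 and 30.3 TPM in siZIP10 plus DTPA, 32.3, 32.0 and 32.5 TPM in siZIP10, 34.0 and 34.1 TPM in siControl plus DTPA, and 32.1, 31.8 and 31.0 TPM in siControl. The double-treated libraries were lowest and the siControl plus DTPA libraries highest, over a narrow range. No change against siControl was called, at 0.11 with low zinc (95% interval 0.02 to 0.19, adjusted p = 0.0555), 0.03 with low ZIP10 (−0.04 to 0.10, adjusted p = 0.558) and −0.08 with both (−0.15 to −0.01, adjusted p = 0.0504). The low-zinc change was called in 6 of 22 alternatives, at 0.11 to 0.16, among them the one that leaves out siZIP10 plus DTPA replicate 2 (0.11, adjusted p = 0.0419). The double change was called in 3 alternatives, with no filter (adjusted p = 0.0375), with no trend (adjusted p = 0.0445) and when siZIP10 plus DTPA replicate 1 was left out (−0.10, adjusted p = 0.047), and it turned sign with 3 other scalings. Xpo7 fell by 0.19 ± 0.04 with the knockdown within DTPA (adjusted p = 0.00156), and the interaction was −0.22 ± 0.05 (adjusted p = 0.00694). A fall of 0.11 with DTPA within the knockdown (adjusted p = 0.0142) was lost with 3 other scalings, with voom and on leaving out siZIP10 plus DTPA replicate 2 (−0.08, adjusted p = 0.0555).

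Foxo3 (ENSMUSG00000048756.11, chr10:42181841-42276755, minus strand) encodes a forkhead transcription factor that drives antioxidant genes and genes of late maturation in mouse erythroblasts. It had 302.3, 285.6 and 297.2 TPM in siZIP10 plus DTPA, 254.9, 256.4 and 265.4 TPM in siZIP10, 292.3 and 275.4 TPM in siControl plus DTPA, and 237.8, 246.1 and 251.9 TPM in siControl. The libraries with DTPA stood above those without it at either siRNA, and the 2 DTPA groups overlapped. Foxo3 rose by 0.21 ± 0.04 with low zinc (adjusted p = 0.00184), to 116% of siControl, and by 0.27 ± 0.03 with both (adjusted p = 3.74e-05), to 120%. It rose by 0.19 with DTPA within the knockdown (adjusted p = 0.000602). Low ZIP10 gave 0.08 (95% interval 0.00 to 0.15, adjusted p = 0.107) and the knockdown within DTPA 0.06 (−0.03 to 0.14, adjusted p = 0.238). The first was called in 3 alternatives and the second in 4, all of them other scalings or models, at 0.09 and at 0.10 to 0.18. The interaction of −0.02 ± 0.05 was not called (adjusted p = 0.781) and its sign turned in 7 alternatives. Between the single treatments siZIP10 minus siControl plus DTPA was −0.13 (adjusted p = 0.0309), a call lost in 7 alternatives. Among these, leaving out siControl plus DTPA replicate 1 gave −0.09 (adjusted p = 0.243), leaving out siZIP10 replicate 1 gave −0.12 (adjusted p = 0.0847) and leaving out siZIP10 replicate 2 gave −0.13 (adjusted p = 0.075).

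Set side by side, the changes with both treatments were below the sum of the single changes for each of the 7 tested members, which is an interaction below 0, as in 53.6% of all tested genes. The 5 called interactions ranged from −0.22 for Xpo7 to −1.18 for Trim10. Trim10 fell with each treatment and further with both, while for Ube2l6 and Fbxo7 the double change was −0.09 and 0.01 where single changes summed to 0.38 and 0.31. Foxo3 lay closest to the sum, at 0.27 against 0.29. The profiles over the 4 groups were most alike for Ube2l6 and Fbxo7 and for Ube2l6 and Xpo7 (root mean square difference of centred log2 means 0.07 each) and least alike for Trim10 and Ube2o (0.85).

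**Figure D3:**
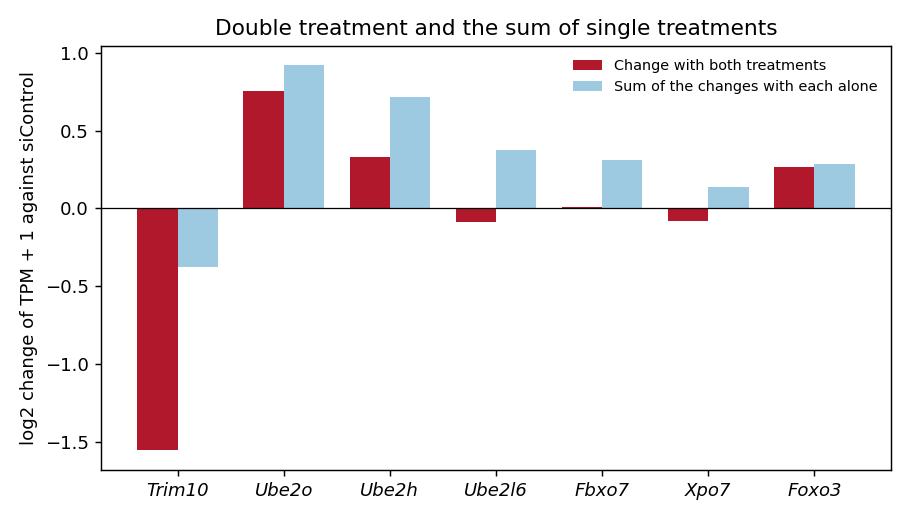
For each of the 7 tested genes, the log2(TPM + 1) change with both treatments (left bar) and the sum of the changes with each treatment alone (right bar), all against siControl. The left bar is the lower in each pair, by 1.18 for Trim10 and by 0.02 for Foxo3.

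Among 7598 other genes of at least 10 TPM, those whose centred group means lay close to Trim10 included Slc25a37, the mitochondrial iron carrier mitoferrin 1 (root mean square difference 0.04), and Larp1, a binder of ribosomal protein mRNAs (0.06). Slc25a37 had 66.3 TPM in siZIP10 plus DTPA, 168 TPM in siZIP10, 179.6 TPM in siControl plus DTPA and 195 TPM in siControl. Nearest to Ube2o were 4930592C13Rik (0.03), Nck2 (0.04) and Snx33 (0.04), and nearest to Ube2h were Unc119 (0.02), Slc31a2 (0.03) and Glul (0.03). Ube2l6 was nearest to Nt5c3 (0.02), Cecr2 (0.02) and Mfsd1 (0.02). Differences of at most 0.014 separated Fbxo7 from Trim12c, Slc35b4 and Ankrd12, Xpo7 from Phlpp2, Hmox2 and Asxl1, and Foxo3 from Mir5125, Gskip and Chchd3. These distances describe 4 group means each and carry no test.

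The other conjugating enzymes were mostly lower with both treatments. Of 29 tested among 42 listed E2 genes, 1 was called higher and 21 lower, with a median change of −0.25 beside −0.08 over all genes. With median-of-ratios scaling, with quantile normalization and with scaling to nuclear protein-coding genes the split was 5 higher and 18 lower. Ube2c, which serves the mitotic ligase APC/C, averaged 4.74 TPM in siZIP10 plus DTPA, 82.5 TPM in siZIP10, 97.5 TPM in siControl plus DTPA and 199 TPM in siControl, and fell by 5.12 with both (adjusted p = 1.57e-14). Ube2s, its partner in chain building, fell by 1.80 (adjusted p = 4.5e-11), Ube2t of the Fanconi pathway by 1.25 (adjusted p = 5e-05), and Ube2j1 of the endoplasmic reticulum by 0.85 (adjusted p = 7.47e-11). The single gene called higher was the pseudogene Ube2d-ps (0.47, adjusted p = 0.000472), whose reads cannot be surely told from those of its parent copies. With low zinc 0 of the 29 were higher and 8 lower (2 and 5 with quantile normalization), and with low ZIP10 2 were higher and 10 lower (4 and 10 with quantile normalization).

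**Figure D4:**
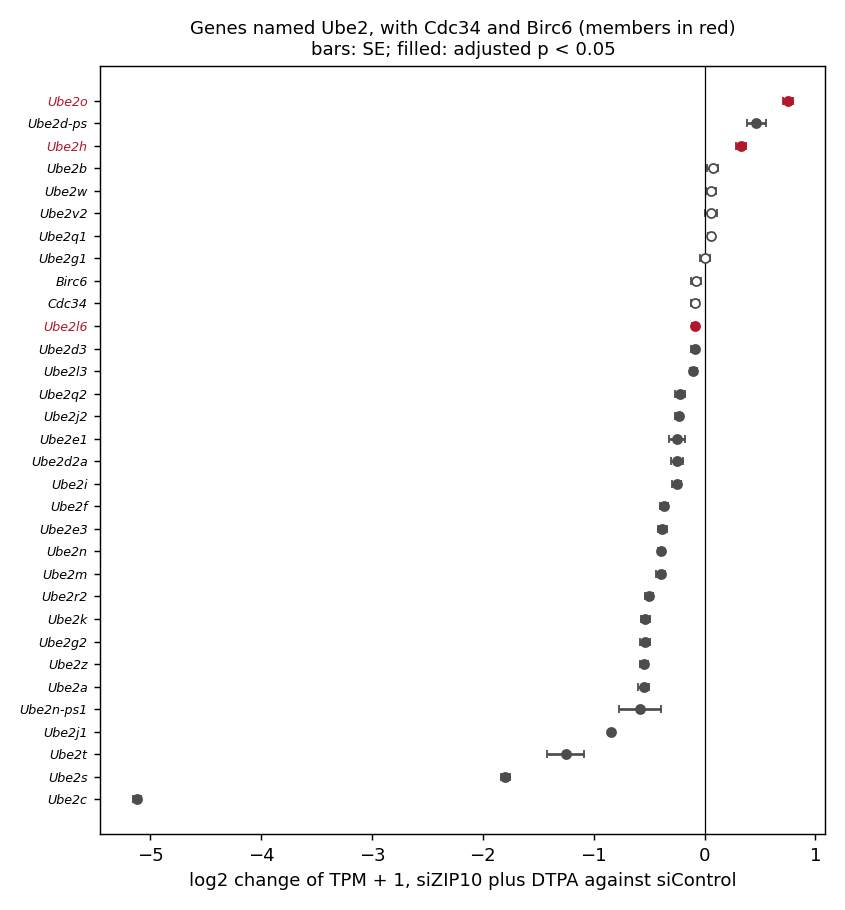
Change with both treatments on the log2(TPM + 1) scale (horizontal axis) for Ube2o, Ube2h and Ube2l6 (red names) and the other tested conjugating enzyme genes; bars are standard errors and filled points are called. Ube2o lies highest at 0.75 and Ube2h at 0.33, Ube2l6 lies at −0.09, and Ube2c lies lowest at −5.12.

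Partner genes of each member were taken from lists of their pathways, whose counts carry no test. Of 11 genes of the CTLH complex, the ligase of UBE2H, 0 were higher and 5 lower with both treatments (median −0.07), but 5 were higher and 4 lower with quantile normalization. Armc8 fell by 0.58 (adjusted p = 2.18e-06), Gid8 by 0.35 (adjusted p = 4.47e-07), Ranbp10 by 0.33 (adjusted p = 2.69e-06) and Gid4 by 0.32 (adjusted p = 0.000101), all subunits or substrate receptors of the complex. Of 4 tested genes of the ISG15 pathway of UBE2L6, 2 were higher and 0 lower with both. Trim25, an ISG15-linked E3 ligase, averaged 112 TPM in siZIP10 plus DTPA, 67.9 TPM in siZIP10, 70.7 TPM in siControl plus DTPA and 62.7 TPM in siControl, and rose by 0.83 with both (adjusted p = 5.73e-09). Usp18, which removes ISG15, rose by 0.61 with both treatments (adjusted p = 0.0177). It averaged 1.68 TPM in siZIP10 plus DTPA, 1.84 TPM in siZIP10, 0.55 TPM in siControl plus DTPA and 0.75 TPM in siControl. Without siZIP10 plus DTPA replicate 2 the list held 1 call with both treatments.

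Of 5 tested genes for the cullin ligase core and partners of FBXO7, 0 were higher and 4 lower with both treatments (median −0.28). Psmf1, which encodes PI31, averaged 74.9 TPM in siZIP10 plus DTPA, 106 TPM in siZIP10, 97.1 TPM in siControl plus DTPA and 114 TPM in siControl, and fell by 0.60 (adjusted p = 4.55e-09). The ligase subunits Rbx1, Cul1 and Skp1a fell by 0.46 (adjusted p = 1.86e-06), 0.28 (adjusted p = 3.07e-06) and 0.23 (adjusted p = 0.00144). Of 6 ubiquitin precursor and E1 genes 2 were higher and 3 lower with both. Ubb, a polyubiquitin gene, averaged 2638 TPM in siZIP10 plus DTPA and 3451 TPM in siControl and fell by 0.39 (adjusted p = 1.1e-07), and Uba6, an E1 enzyme, fell by 0.29 (adjusted p = 0.00107). Rps27a, which encodes ubiquitin fused to a ribosomal protein, rose by 0.35 (adjusted p = 0.000116), and it has many processed copies, so the division of reads is uncertain.

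Of 12 tested genes of cytoplasmic dynein, the target of TRIM58, 1 was higher and 7 lower with both treatments (median −0.20), but 3 and 3 with quantile normalization. Dynll1, a light chain, fell by 1.06 (adjusted p = 1.58e-08), at 66.5 TPM in siZIP10 plus DTPA and 140 TPM in siControl. Pafah1b1 and Nde1, regulators of the motor, fell by 0.42 (adjusted p = 3.29e-07) and 0.41 (adjusted p = 1.58e-05), and the light chain Dynll2 by 0.24 (adjusted p = 0.000101). Of 8 other exportins and RAN, the small GTPase of nuclear transport, 1 was higher and 5 lower with both (median −0.23). With quantile normalization 3 were higher and 5 lower. Xpo1, the main exporter of proteins, averaged 25.4 TPM in siZIP10 plus DTPA, 71.3 TPM in siZIP10, 57.8 TPM in siControl plus DTPA and 89.1 TPM in siControl, and fell by 1.77 (adjusted p = 2.45e-11). Ran fell by 1.09 (adjusted p = 2.02e-10), Cse1l, the exporter of importin alpha, by 0.94 (adjusted p = 2.08e-09), and Xpo4 by 0.23 (adjusted p = 0.00554). With low zinc 0 of the 8 were higher and 4 lower, and with low ZIP10 1 was higher and 3 lower.

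Of 13 tested FOXO family and target genes, 7 were higher and 5 lower with both treatments (median 0.10). Txnip, an inhibitor of thioredoxin, averaged 508 TPM in siZIP10 plus DTPA, 157 TPM in siZIP10, 203 TPM in siControl plus DTPA and 154 TPM in siControl, and rose by 1.72 (adjusted p = 3.33e-12). Cited2, a transcriptional co-regulator, rose by 1.43 (adjusted p = 8.41e-10) and Ulk1, a kinase that starts autophagy, by 0.67 (adjusted p = 6.12e-08). Catalase, encoded by Cat, fell by 0.58 (adjusted p = 1.68e-09), at 736 TPM in siZIP10 plus DTPA and 1103 TPM in siControl. With low zinc 6 of the 13 were higher and 2 lower, and with low ZIP10 7 were higher and 1 lower. Target lists of this kind hold genes with many other regulators.

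Of 25 tested among 66 other TRIM genes, 16 were higher and 6 lower with both treatments (median 0.25), and 16 to 17 were higher and 6 lower under the other scalings. Besides Trim25, given above, Trim59 fell by 2.77 (adjusted p = 1.1e-10), while Trim34b and Trim34a, near-identical copies that may share reads, rose by 0.75 (adjusted p = 0.00364) and 0.71 (adjusted p = 0.000364). Of 24 tested other FBXO genes 4 were higher and 10 lower with both (median −0.09), but 8 and 6 with quantile normalization. Fbxo5, an inhibitor of APC/C, fell by 3.20 (adjusted p = 4.97e-08), at 3.18 TPM in siZIP10 plus DTPA and 36.4 TPM in siControl. Fbxo36 fell by 1.31 (adjusted p = 3.41e-07), Fbxo48 by 0.69 (adjusted p = 0.0032), and Fbxo4 rose by 0.80 (adjusted p = 0.000484).

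Of 16 tested genes of enucleation and nuclear condensation, 5 were higher and 10 lower with both treatments (median −0.12), 5 and 7 with median-of-ratios scaling and 7 and 6 with quantile normalization. E2f2, a cell cycle transcription factor, averaged 3.41 TPM in siZIP10 plus DTPA, 13.1 TPM in siZIP10, 11.2 TPM in siControl plus DTPA and 25.3 TPM in siControl, and fell by 2.58 (adjusted p = 2.69e-10). Diaph3, a formin that builds actin filaments, fell by 1.97 (adjusted p = 1.46e-09) and Kmt5a, which methylates histone H4, by 0.84 (adjusted p = 2.04e-08). Kat2a, a histone acetyltransferase, rose by 0.67 (adjusted p = 1.65e-05), at 10.3 TPM in siZIP10 plus DTPA and 6.10 TPM in siControl.

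With a single treatment fewer partner genes were called than with both in each list but that of ISG15. The ISG15 list held 2 higher and 0 lower with low ZIP10, as with both treatments. Several splits moved with the scaling or with 1 library. Of the TRIM genes 5 were higher and 4 lower with low zinc, but 8 and 2 with quantile normalization, and those 9 calls numbered 4 without siControl plus DTPA replicate 1 and 5 without replicate 2 of that group. With low ZIP10 8 TRIM genes were higher and 2 lower. Of the FBXO genes 2 were higher and 3 lower with low zinc, but 4 and 2 with quantile normalization, and those 5 calls numbered 2 without either siControl plus DTPA library and 3 without siControl replicate 3. With low ZIP10 4 FBXO genes were higher and 3 lower. Of the enucleation genes 5 were higher and 3 lower with low zinc, or 5 calls in all without siControl plus DTPA replicate 1, and 3 were higher and 5 lower with low ZIP10, but 5 and 5 with quantile normalization. CTLH genes numbered 1 higher and 2 lower with low zinc, but 3 and 1 with quantile normalization, and 0 higher and 3 lower with low ZIP10, but 2 and 2. Dynein genes numbered 0 higher and 3 lower with low zinc, but 3 and 3 with quantile normalization, and 2 higher and 2 lower with low ZIP10. Those 4 dynein calls became 4 higher and 2 lower with quantile normalization, and 2 calls without siControl replicate 2, without siZIP10 replicate 1 or without siZIP10 replicate 3. The FBXO7 partners numbered 0 higher and 3 lower with low zinc. The ISG15, ubiquitin precursor and E1 lists, and the FBXO7 partners with low ZIP10, held at most 2 calls each, a count that changed with 1 library left out.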

How the data were processed

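RNA was measured in 12 libraries of G1E-ER4 cells (4 groups of 3 biological replicates per the labels), prepared with a stranded mRNA kit. The values the authors deposited are TPM. The submitters' processing notes name the build mm10 and the tools HISAT2 2.1.0, featureCounts, edgeR, FastQC and Trimmomatic 0.33. How these were set, in which order, with which annotation and strand option is not given in the sources used here. Positions, exon lengths and overlaps came from GENCODE mouse release 21 (GRCm38), which holds 53365 of 55367 gene names. TPM times exon length gave whole reads, within 0.1 read, for 98.9% to 99.1% of values up to 20 reads. siControl plus DTPA replicate 3 was identical to siZIP10 replicate 1 and was left out, so 11 libraries were used instead of the 12 planned.

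log2(TPM + 1), which understates changes of low genes, was tested for 11379 genes averaging 1 TPM or more, with limma 3.58.1 (R 4.3.3; group means, trend on mean level), in 7 comparisons, two-sided, Benjamini-Hochberg adjusted over all genes, threshold 0.05. The spread was shared over all groups, with 7 residual degrees of freedom. The code was checked on simulated data. The members and all gene lists were chosen with earlier results of these data known. Named genes are the members, up to 4 called genes of largest change per list, and the 3 nearest profiles per member; Ube2d-ps, Hdc and Trim58's neighbours were named after their values were seen. The alternatives were another pseudocount, 2 other low-value filters, 3 other scalings, only the groups compared, no trend, voom on recovered reads, a replicate block, 12 libraries as labelled and leaving out each library. No p-value was computed for a list. Some genes that the rule names are not reported here.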

Additional observations from a re-analysis of the deposited data

Results flagged for a closer look

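The change with DTPA differed between cells with and without the ZIP10 knockdown for 5 members, by limma's test of the difference itself (adjusted over all genes). It differed by −1.18 for Trim10, whose level with DTPA was 38.2% of that without it in knockdown cells and 87.2% in siControl cells. It differed by −0.46 for Ube2l6, −0.38 for Ube2h, −0.30 for Fbxo7 and −0.22 for Xpo7. For Ube2l6 DTPA gave −0.29 in knockdown cells and 0.18 in siControl cells, and for Xpo7 −0.11 and 0.11. For Fbxo7 it gave −0.22 and 0.09, and for Ube2h −0.07 and 0.31. Such a difference was called in 32.4% of all tested genes, and the cause was not tested.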

How the results depend on the processing

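Of 1071 member values recomputed under alternatives, 1004 kept direction and call, and 26 changed sign. With the direction kept, 14 lost the call and 27 gained it. Of the values that changed sign, 0 were called under the alternative. But 2 of them were of the Ube2l6 change with both treatments, which was called at −0.09 above and so also lost its call there. Trim10 and Ube2o kept every call they had. The count of members called between the single treatments, 1, was 0 with no filter, only the groups compared, no trend or 12 libraries as labelled, 2 with median-of-ratios scaling, 3 with voom, and 0 to 1 with 1 library left out. Those settings with 0 had 3, 2, 2 and 0 members at an unadjusted limma p under 0.05. Over all genes, that comparison called 2371 genes but 0 with the 12 libraries as labelled (1726 at an unadjusted p under 0.05), where the repeated library stands on both sides. Sign changes were as follows on the log2 scale, where the cause was not tested. With median-of-ratios scaling the values were 0.0065 for Ube2l6 and 0.0082 for Xpo7 with both treatments, 0.0091 for Ube2h with DTPA within the knockdown, 0.016 for the Foxo3 interaction, and −0.0053 for Trim10 and −0.0028 for Ube2l6 between the single treatments. With quantile normalization they were 0.023 (Xpo7, both treatments), 0.070 (Ube2h, DTPA within the knockdown), 0.082 (Foxo3 interaction) and −0.0026 (Trim10, between the single treatments). With scaling to nuclear protein-coding genes they were 0.0040 (Ube2l6) and 0.0058 (Xpo7) with both treatments, 0.020 (Ube2h, DTPA within the knockdown) and 0.056 (Foxo3 interaction). Voom gave 0.018 for the Foxo3 interaction. The 12 libraries as labelled gave −0.028 for Ube2h with the knockdown within DTPA, 0.029 for the Foxo3 interaction and −0.0095 for Trim10 between the single treatments. With 1 library left out, Fbxo7 ranged from −0.016 to 0.034 with both treatments, Ube2h from −0.021 to 0.053 with the knockdown within DTPA, the Foxo3 interaction from −0.065 to 0.021, and between the single treatments Trim10 from −0.014 to 0.046 and Ube2o from −0.020 to 0.12. Replicate numbers did not pair the libraries: deviations of same-numbered libraries correlated at −0.06 to 0.06, and 5 of 11 libraries correlated best with their own number. With the replicate block the members called numbered 5 with low zinc, 5 with low ZIP10 and 5 with both treatments, as without it, and Ube2h with the knockdown within DTPA was −0.0089. Counts for lists stayed within 1.5 times in 1515 of 1683 alternatives. The comparison restricted to the groups compared could not be made for the interaction. With n = 2 in siControl plus DTPA, its spread rests on the pooled estimate, and recovered reads of 961 or more per library for Trim10 leave counting error small.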

Other observations

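Trim58 lay in a stretch of chromosome 11 with few protein-coding genes above 0 TPM, and genes of other kinds were not examined there. The nearest protein-coding genes of at least 1 TPM were Sh3bp5l, which ends at base 58347728 and averaged 50.8 TPM, and Gm12258, which starts at base 58847158 and averaged 9.91 TPM (GRCm38). Between them lie 26 protein-coding genes besides Trim58, 20 of them olfactory receptor genes, and 25 of the 26 were at 0 in each of the 11 libraries, the exception being Olfr313.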
